A study of Mus musculus with 12 samples.

Results

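The genes described here are 35 germline and meiosis genes, followed on 12 one-colour bead arrays of E14 mouse embryonic stem (ES) cells. They were taken by gene symbol from the array's probe annotation, which names 17658 genes in all. Of the 35 genes, 34 had at least 1 probe and together 48 probes, and 20 had a probe with an intensity above 32 on at least 3 of the 12 arrays. This intensity is the floor used throughout: lower values were set to it before log2 values were taken. The other 14 genes with a probe were silent by this rule, and Sycp1 had no probe.

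E14 is an established mouse ES cell line, grown here feeder-free on gelatin in serum medium with LIF. In 3 cultures a short hairpin RNA (shRNA) against Jmjd1a (current symbol Kdm3a) was expressed from 2 µg of the pSUPER puro plasmid, and in 3 cultures one against Jmjd2c (Kdm4c). The 6 control cultures carried an shRNA against firefly luciferase (Luc), which mouse cells lack, in the same plasmid. Puromycin selection is described with dose and duration for Luc and only mentioned for the knockdowns, and no further hairpin for either target is named, so an effect of the hairpin and of the lost gene cannot be told apart. The labels call the cultures of a group biological replicates; where these were not separate cultures, the p-values measure only the spread between RNA samples.

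ES cells descend from the early epiblast, from which germ cells also arise, and they transcribe part of the germline programme at low level while keeping most of it silent. Silencing of germline genes in ES cells is known to involve DNA methylation, H3K9 methylation and a Polycomb complex, PRC1.6, that binds E-box and E2F sequences through MGA, MAX and E2F6. Jmjd1a removes methyl groups from mono- and dimethylated H3K9, Jmjd2c from the trimethylated form, and mice lacking Jmjd1a have defects of late sperm development. In meiosis, DNA breaks made by the Spo11 complex are repaired between homologous chromosomes that cohesin and the synaptonemal complex hold together, while the piRNA pathway represses transposons.

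The promoters of 5 of the 6 genes with the largest called falls, by floored values, are shown. They are the stretches of DNA on which such repressors are known to act. RefSeq (GRCm38.p6) gives 250 bases before an annotated start for Smc1b at chr15:85131958-85132207 (- strand), Rec114 at chr9:58741560-58741809 (- strand), Aurkc at chr7:6995135-6995384 (+ strand), Stra8 at chr6:34920698-34920947 (+ strand) and Mov10l1 at chr15:88982744-88982993 (+ strand). Got1l1 is the other of the 6 genes. The sequences run 5′ to 3′ towards the start, with each CACGTG (E-box) and each GCGGGAA or its reverse complement TTCCCGC (E2F sequence) in capitals.
Smc1b: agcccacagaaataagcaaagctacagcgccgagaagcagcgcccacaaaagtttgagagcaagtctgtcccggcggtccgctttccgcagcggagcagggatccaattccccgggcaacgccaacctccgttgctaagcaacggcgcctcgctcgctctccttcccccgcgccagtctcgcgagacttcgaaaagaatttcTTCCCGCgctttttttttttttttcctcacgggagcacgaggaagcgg
Rec114: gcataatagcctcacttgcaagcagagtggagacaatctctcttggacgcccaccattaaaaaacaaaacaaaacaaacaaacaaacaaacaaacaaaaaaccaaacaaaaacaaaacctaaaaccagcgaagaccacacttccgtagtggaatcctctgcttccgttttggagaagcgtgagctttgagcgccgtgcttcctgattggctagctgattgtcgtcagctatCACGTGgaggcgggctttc
Aurkc: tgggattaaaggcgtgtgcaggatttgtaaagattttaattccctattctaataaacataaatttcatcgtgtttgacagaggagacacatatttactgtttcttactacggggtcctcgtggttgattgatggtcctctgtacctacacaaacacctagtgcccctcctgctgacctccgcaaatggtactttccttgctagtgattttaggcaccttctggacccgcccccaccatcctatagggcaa
Stra8: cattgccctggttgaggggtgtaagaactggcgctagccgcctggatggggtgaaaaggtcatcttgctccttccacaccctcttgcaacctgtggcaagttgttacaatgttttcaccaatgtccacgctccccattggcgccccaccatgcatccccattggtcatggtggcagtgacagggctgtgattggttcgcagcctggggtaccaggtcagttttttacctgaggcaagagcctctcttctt
Mov10l1: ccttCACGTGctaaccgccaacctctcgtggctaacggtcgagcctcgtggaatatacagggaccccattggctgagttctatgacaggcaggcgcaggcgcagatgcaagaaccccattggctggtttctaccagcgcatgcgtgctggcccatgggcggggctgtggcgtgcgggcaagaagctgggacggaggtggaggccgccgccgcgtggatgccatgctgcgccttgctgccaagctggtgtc

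Smc1b held an E2F sequence that began 48 bases before the start, Rec114 an E-box that began 19 bases before it, and Mov10l1 an E-box that began 246 bases before it. Rec114 also held an E2F sequence 27 bases into the transcript, outside the stretch shown. In Aurkc and Stra8 neither motif was found in the 300-base window, which reaches from 250 bases before the start to 50 after it. Among the 30 genes of the set with a RefSeq promoter, 12 held an E-box, against 8.09% of all 27025 genes in the table, and 9 held an E2F sequence, against 5.29%. Both motifs were present in 6 of the 30 (Ddx4, Hormad1, Rec114, Slc25a31, Stag3 and Sycp3), against 0.514% of all genes. These are descriptions of letters in a window, without a test. The promoters also held more CG pairs, with a median of 20 both for genes that fell in a knockdown and for the others, against 7 for all promoters. Of 11 genes that fell in a knockdown and had a promoter 4 held an E-box and 4 an E2F sequence, and of the 19 others 8 and 5 did.

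Each knockdown was set against 3 Luc arrays, Jmjd1a against Luc replicates 1 to 3 (Luc 1-3) and Jmjd2c against Luc replicates 4 to 6 (Luc 4-6). The labels assign no Luc array to a knockdown, and this pairing followed a rule given for this work. The series text sets both against all 6, which is given as an alternative. The reason for splitting the Luc arrays is a difference between the control sets. Log2 values of arrays of one group correlated with r = 0.995 to 0.997 across tested probes, those of Luc 4-6 with those of Luc 1-3 at r = 0.962 to 0.964. Jmjd1a arrays correlated at r = 0.986 to 0.988 with Luc 1-3 and at r = 0.950 to 0.952 with Luc 4-6. For Jmjd2c arrays r was 0.980 to 0.983 with Luc 4-6 and 0.974 to 0.976 with Luc 1-3. The labels do not say how the Luc sets arose, so what separates them was not tested. Mean intensity was 236 to 245 per array and 13591 to 14996 probes lay above the floor, and the number of arrays limits the precision. The target probes checked the labels: Kdm3a averaged 809.8 ± 35.8 in Jmjd1a and 2145 ± 164 in Luc 1-3 arrays on its brightest probe (SD, n = 3 each), a log2 change of -1.40 (-1.65 on a dimmer probe), and Kdm4c averaged 104 ± 2.36 in Jmjd2c and 271 ± 6.14 in Luc 4-6 arrays, a change of -1.38.

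The cell label was checked against markers of ES cells and of other cell types. All 8 ES cell markers, Pou5f1, Sox2 and Nanog among them, lay above the floor. Their summed intensity was 20038 to 20450.1 in Jmjd1a and 22391 to 23571 in Luc 1-3 arrays, and 19547 to 20537 in Jmjd2c and 22624 to 22934 in Luc 4-6 arrays, so the sum was lower in both knockdowns. On the brightest probe of each, 2 of the 8 fell in Jmjd1a (limma), Nanog (-0.29, adjusted p = 0.00469) and Zfp42 (-0.45, adjusted p = 0.000177). In Jmjd2c Tdgf1 (-1.05, adjusted p = 8.96e-06), Nanog (-0.40, adjusted p = 0.000395) and Sox2 (-0.18, adjusted p = 0.0312) fell and Sall4 rose (0.38, adjusted p = 0.000925). Of all tested probes 12.1% were called lower in Jmjd1a, and 18.2% lower and 20.7% higher in Jmjd2c. The dimmer Sox2 probe fell in Jmjd1a (-0.37, adjusted p = 0.000742) and in Jmjd2c (-0.49, adjusted p = 5.79e-05). On its dimmer probes Nanog fell by more, with -0.87 and -0.75 in Jmjd1a and -0.66 and -0.61 in Jmjd2c. Pou5f1 did not pass on either probe in either knockdown (brighter probe -0.04, adjusted p = 0.700 in Jmjd1a and 0.03, adjusted p = 0.790 in Jmjd2c). None of 9 spermatid markers, which include the protamine genes Prm1 and Prm2, lay above the floor on at least 3 arrays, and neither did any of 6 blood markers. Of 8 markers of somatic testis cells Star and Hsd3b1 lay above it, and of 7 fibroblast markers Thy1. Thy1 fell in both knockdowns (-0.77, adjusted p = 0.0194 in Jmjd1a; -1.22, adjusted p = 0.000801 in Jmjd2c), as did Hsd3b1 (-0.27, adjusted p = 0.00684 in Jmjd1a; -0.19, adjusted p = 0.0319 in Jmjd2c), the direction of most germline genes called; Star did not pass. The summed fibroblast markers stood at 87.2 to 92.3 in Jmjd1a and 119 to 132 in Luc 1-3 arrays, and at 57.8 to 111 in Jmjd2c and 123 to 151 in Luc 4-6 arrays. Only Thy1 of the 7 lay above the floor on at least 3 arrays, so this sum adds no further marker to it. Markers of primitive endoderm, an early lineage that ES cultures can form, also moved with the groups: 5 of 6 lay above the floor, and their summed intensity was 685 to 807 in Jmjd1a and 1532 to 1566 in Luc 1-3 arrays, and 2381 to 2631 in Jmjd2c and 749.5 to 773 in Luc 4-6 arrays. The summed endoderm markers thus stood lower in Jmjd1a and higher in Jmjd2c than in the Luc arrays of the comparison. Of these 5 genes 3 fell in Jmjd1a, where 12.1% of all tested probes did, and 4 rose in Jmjd2c, where 20.7% did (limma). Gata4 passed in neither knockdown, and Sox17 did not pass in Jmjd1a. The part of these markers in the results was not tested.

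In Jmjd1a arrays 8 of the 20 measurable genes fell, 2 rose and 10 did not pass (limma, adjusted p under 0.05). By floored values the DNA break gene Rec114 fell most, followed by the kinase gene Aurkc, the aminotransferase-like gene Got1l1 and the receptor gene Kit. After these came the intercellular bridge gene Tex14, Tcp11, the piRNA gene Piwil2 and the cohesin gene Stag3. Aurkc had only 1 Jmjd1a array above the floor, so its place in this order is not settled. Of all 15853 tested probes 12.1% were called lower and 13.4% higher, 25.5% in all. On 9 genes every Jmjd1a array lay below every Luc 1-3 array, against 19.3% of all tested probes: the 8 that fell and Stra8, which was below the floor throughout. On Tdrkh, Taf7l and Rec8 every Jmjd1a array lay above, against 21.5% of probes. The median change of the 20 genes was -0.07 on the log2 scale, against 0.00 over all tested probes.

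In Jmjd2c arrays 13 of the 20 genes fell, 7 did not pass and 0 rose (limma, and 0 also at an unadjusted p under 0.05). By floored values the meiotic cohesin gene Smc1b fell most, before Rec114, Aurkc, the meiotic entry gene Stra8 and the piRNA helicase gene Mov10l1. Stra8 was measurable only through the Luc 4-6 arrays, so its fall is a minimum and its place in this order is not settled. Of all tested probes 18.2% were called lower and 20.7% higher, 39% in all. On 15 of the 20 genes every Jmjd2c array lay below every Luc 4-6 array, against 23.2% of all tested probes: the 13 that fell, Piwil2 and Rec8. The median change of the 20 genes was -0.45, against 0.01 over all tested probes. Against all 6 Luc arrays 0 of the 20 genes passed in either direction in this knockdown, with 1896 probes called in all; that control group joins Luc 4-6 to Luc 1-3, whose levels of most of these genes were lower. In bulk RNA, fewer cells that express a gene and less RNA per cell cannot be told apart.

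Rec114, Stag3, Kit, Aurkc, Tex14, Tcp11 and Got1l1, 7 of the 20, fell in both knockdowns, as did 5.27% of all tested probes. The knockdown comparisons share no arrays. Rec114, Aurkc, Got1l1, Tex14 and Kit were already known from an earlier analysis of these arrays to be low in Jmjd1a arrays, so their presence in the set is no independent evidence.

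**Figure D1:**
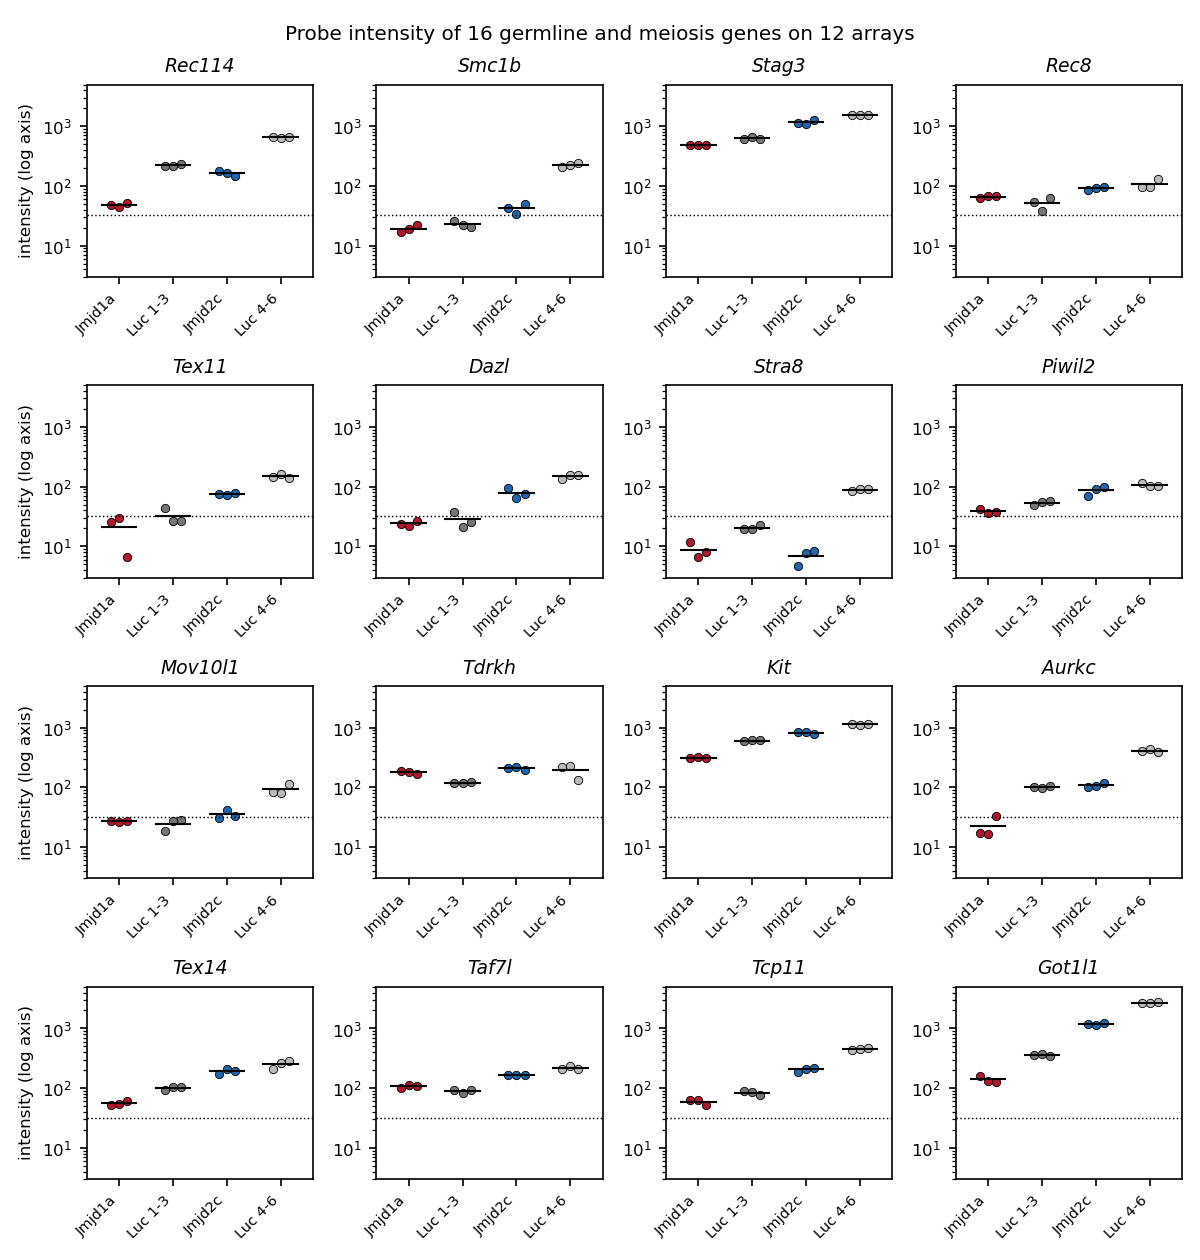
Probe intensity (log axis) of the 16 genes called in at least 1 comparison, by group. Points are arrays, bars are means of 3 arrays and the dotted line is the floor of 32. Rec114, Aurkc, Kit, Tex14, Tcp11 and Got1l1 are lower in each knockdown than in the Luc arrays it was set against, and highest in Luc 4-6.

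Among 7 genes of meiotic recombination 3 were measurable, and Rec114, whose product is part of the machinery that lets Spo11 cut DNA, fell in both knockdowns. Its intensity was 47.8, 43.5 and 52.6 in Jmjd1a and 219, 217 and 229.9 in Luc 1-3 arrays. It was 174, 163 and 149 in Jmjd2c and 655, 637 and 659 in Luc 4-6 arrays. The groups did not overlap in either comparison. The log2 change was -2.21 ± 0.08 (SE, adjusted p = 1.48e-08) in Jmjd1a, leaving 21.5% of the Luc 1-3 level, and -2.01 ± 0.08 (SE, adjusted p = 1.27e-08) in Jmjd2c, leaving 24.9% of the Luc 4-6 level. Among the 12122 probes above the floor on all 6 arrays of the comparison this was the largest fall in Jmjd1a, and it was the 3rd largest among 12823 in Jmjd2c. Dmc1, the meiotic strand-exchange recombinase, and Msh5, a crossover factor, lay close to the floor, at no more than 48.1 and 45.8, and neither passed in any comparison.

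In the group of cohesin and synaptonemal complex genes 4 of 7 were measurable. Stag3, a cohesin subunit of meiotic cells, read 489, 476 and 477 in Jmjd1a and 611, 669.8 and 618 in Luc 1-3 arrays, and 1125, 1081 and 1262 in Jmjd2c and 1545, 1531 and 1550.2 in Luc 4-6 arrays. No arrays of a comparison overlapped. The change was -0.40 ± 0.06 (SE, adjusted p = 0.000863) in Jmjd1a, with a 95% interval of -0.54 to -0.25, and -0.42 ± 0.06 (SE, adjusted p = 0.000367) in Jmjd2c, with an interval of -0.56 to -0.28. They differed by 0.02, which did not pass (adjusted p = 0.890). Smc1b, the meiotic SMC subunit of the same ring, was below the floor in Jmjd1a (16.6, 18.6 and 22.5) and in Luc 1-3 arrays (26.0, 21.9 and 20.5), so no change could be measured there. It read 42.5, 33.8 and 49.4 in Jmjd2c and 207, 222 and 243 in Luc 4-6 arrays, a change of -2.43 ± 0.11 (SE, adjusted p = 3.94e-08) that left 18.5%. This was the largest fall among the 12823 probes above the floor on all 6 of those arrays, and 2 of the Jmjd2c arrays lay within 11 units of the floor.

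Tex11, an X-linked gene of chromosome synapsis and crossing over, read 76.2, 72.7 and 78.1 in Jmjd2c and 144, 160.1 and 142 in Luc 4-6 arrays, a change of -0.97 ± 0.11 (SE, adjusted p = 2.99e-05). In Jmjd1a and Luc 1-3 arrays 1 of 6 values lay above the floor. Rec8, the kleisin that closes the meiotic cohesin ring, read higher in Jmjd1a, with 63.3, 68.3 and 67.3 against 53.4, 38.4 and 61.9 in Luc 1-3 arrays. Its change of 0.40 ± 0.16 (SE, adjusted p = 0.0985) did not pass, although the arrays did not overlap; it passed without Luc replicate 3 (0.55, adjusted p = 0.0323). In Jmjd2c it read 85.7, 91.8 and 94.4 and in Luc 4-6 arrays 96.3, 94.9 and 133, also without passing (-0.24 ± 0.16 SE, adjusted p = 0.281). Sycp2 and Sycp3, which build the axes of meiotic chromosomes, were silent.

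Among regulators of germ cell fate and meiotic entry 2 of 5 were measurable, Dazl and Stra8. Dazl, an RNA-binding protein that licenses germ cells for meiosis, read 94.0, 65.6 and 74.7 in Jmjd2c and 133, 159.6 and 157 in Luc 4-6 arrays. Stra8, the retinoic acid-induced switch for meiotic entry, was below the floor in Jmjd2c arrays (4.6, 7.6 and 8.2) and read 85.9, 91.4 and 91.1 in Luc 4-6 arrays. Both genes were lower on all Jmjd2c arrays than on all Luc 4-6 arrays, where both were above the floor. Dazl stayed above the floor on the Jmjd2c arrays and Stra8 did not. Dazl fell by 0.95 on the log2 scale (SE 0.12, adjusted p = 9.72e-05) and Stra8 was at least 2.79-fold lower (adjusted p = 3.34e-09, which does not measure the spread below the floor). In Jmjd1a and Luc 1-3 arrays Stra8 was below the floor on all 6 and Dazl on 5 of 6. A further Dazl probe, on which 3 of 12 arrays lay above the floor, did not pass in any comparison (-0.10 ± 0.10 SE, adjusted p = 0.456 in Jmjd2c). Stra8 was measurable only through the Luc 4-6 arrays, so it had to differ from the other groups, and the same holds in part for Mov10l1, which 2 Jmjd2c arrays also measured. Dazl, Smc1b and Tex11 lay above the floor on all 3 Jmjd2c and all 3 Luc 4-6 arrays and on at most 1 of the other 6, so their height over Luc 1-3 is partly set by the filter. Counts that include such genes carry no support of their own.

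The piRNA pathway had 3 measurable genes of 7, and they did not move alike. Piwil2 (Mili), an Argonaute protein that binds piRNAs, read 42.4, 36.7 and 37.7 in Jmjd1a and 49.7, 55.0 and 57.7 in Luc 1-3 arrays, a change of -0.48 ± 0.12 (SE, adjusted p = 0.0115). It read 69.5, 90.8 and 98.3 in Jmjd2c and 114, 101 and 101 in Luc 4-6 arrays and missed the threshold (-0.30 ± 0.12 SE, adjusted p = 0.0659), which it passed without Jmjd2c replicate 3 (-0.40, adjusted p = 0.0234). Mov10l1, an RNA helicase needed to make piRNAs, was below the floor on all Jmjd1a and Luc 1-3 arrays. It read 30.6, 42.5 and 33.0 in Jmjd2c and 82.8, 81.6 and 113 in Luc 4-6 arrays, with a change of -1.36 ± 0.13 (SE, adjusted p = 9.03e-06) and 1 Jmjd2c array below the floor.

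Tdrkh, a Tudor protein that helps trim piRNA ends, was 1 of the 2 genes that rose in Jmjd1a, with 188, 183 and 170.3 against 119.9, 118 and 122 in Luc 1-3 arrays and a change of 0.59 ± 0.16 (SE, adjusted p = 0.0206). The call was lost without Luc replicate 1 or 2 or Jmjd1a replicate 1 or 2 (adjusted p = 0.0518 to 0.0642), and a further Tdrkh probe did not pass (0.17 ± 0.12 SE, adjusted p = 0.364). Its intensity was 209.9, 220.4 and 198 in Jmjd2c and 223, 229 and 132 in Luc 4-6 arrays, where Luc replicate 6 stood apart; without it the change was -0.11 in place of 0.15, and neither passed.

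The germ cell receptor gene and the kinase-type genes all fell in both knockdowns. Kit, the receptor for stem cell factor on which early germ cells depend, read 306, 318 and 305 in Jmjd1a and 595, 616 and 611 in Luc 1-3 arrays, and 832, 842 and 780.4 in Jmjd2c and 1151, 1127 and 1162 in Luc 4-6 arrays. The changes were -0.97 ± 0.05 (SE, adjusted p = 1.86e-07) in Jmjd1a and -0.49 ± 0.05 (SE, adjusted p = 2.25e-05) in Jmjd2c. A further Kit probe was above the floor on the 3 Luc 4-6 arrays alone (36.5, 43.8 and 42.6).

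Aurkc, the Aurora kinase of meiotic divisions, read 17.4, 16.3 and 33.5 in Jmjd1a and 100.1, 98.0 and 104 in Luc 1-3 arrays. It read 100.2, 107 and 119.9 in Jmjd2c and 409, 445 and 385 in Luc 4-6 arrays. The groups lay far apart in both comparisons, and 2 of the 3 Jmjd1a arrays were below the floor. The change was -1.63 ± 0.08 (SE, adjusted p = 6.87e-08) in Jmjd1a, a value that the floor limits, and -1.92 ± 0.08 (SE, adjusted p = 1.29e-08) in Jmjd2c. Tex14, needed for the bridges between dividing germ cells, read 53.1, 53.6 and 60.0 in Jmjd1a and 94.5, 103 and 104 in Luc 1-3 arrays, a change of -0.86 ± 0.11 (SE, adjusted p = 0.000143). In Jmjd2c it read 172, 213 and 190.3 and in Luc 4-6 arrays 213, 267 and 281, where the groups nearly touched. That change, -0.40 ± 0.11 (SE, adjusted p = 0.0126), did not pass without Jmjd2c replicate 1 (adjusted p = 0.0535), without Luc replicate 6 (0.0524) or with the 6 arrays alone (0.0681).

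Of 6 testis-type genes 5 were measurable. Got1l1, named for its likeness to the aspartate aminotransferase Got1, read 158, 133 and 129 in Jmjd1a and 363, 379.5 and 340.4 in Luc 1-3 arrays. It read 1185, 1139 and 1239.7 in Jmjd2c and 2625, 2705 and 2738 in Luc 4-6 arrays. In both comparisons all knockdown arrays lay under all Luc arrays of their set, with a change of -1.37 ± 0.08 (SE, adjusted p = 4.08e-07) in Jmjd1a and of -1.18 ± 0.08 (SE, adjusted p = 7.88e-07) in Jmjd2c. Tcp11, a sperm protein gene of the t-complex, read 62.6, 62.1 and 52.3 in Jmjd1a and 90.1, 85.7 and 77.1 in Luc 1-3 arrays, a change of -0.52 ± 0.09 (SE, adjusted p = 0.00119). It read 189, 210.4 and 220.5 in Jmjd2c and 436, 445 and 464 in Luc 4-6 arrays, a change of -1.12 ± 0.09 (SE, adjusted p = 2.62e-06). The fall left 69.9% of the Luc level in Jmjd1a and 46.0% in Jmjd2c.

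Taf7l, the germ cell paralogue of the TFIID subunit Taf7, rose in Jmjd1a and fell in Jmjd2c. It read 100.5, 112 and 108 in Jmjd1a and 92.3, 81.5 and 93.8 in Luc 1-3 arrays, a change of 0.26 ± 0.07 (SE, adjusted p = 0.0208) that was lost without Luc replicate 2 (adjusted p = 0.0817), Jmjd1a replicate 2 (0.0802) or Jmjd1a replicate 3 (0.0587) and with the 6 arrays alone (0.0664). It read 167, 168 and 168 in Jmjd2c and 206, 234 and 207 in Luc 4-6 arrays, a change of -0.36 ± 0.07 (SE, adjusted p = 0.00253). Brdt, a testis bromodomain protein, and Slc25a31, an ADP/ATP carrier of germ cell mitochondria, lay around the floor on every array, at 14.7 to 45.8 and 14.6 to 39.4, and did not pass in any comparison.

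**Figure D2:**
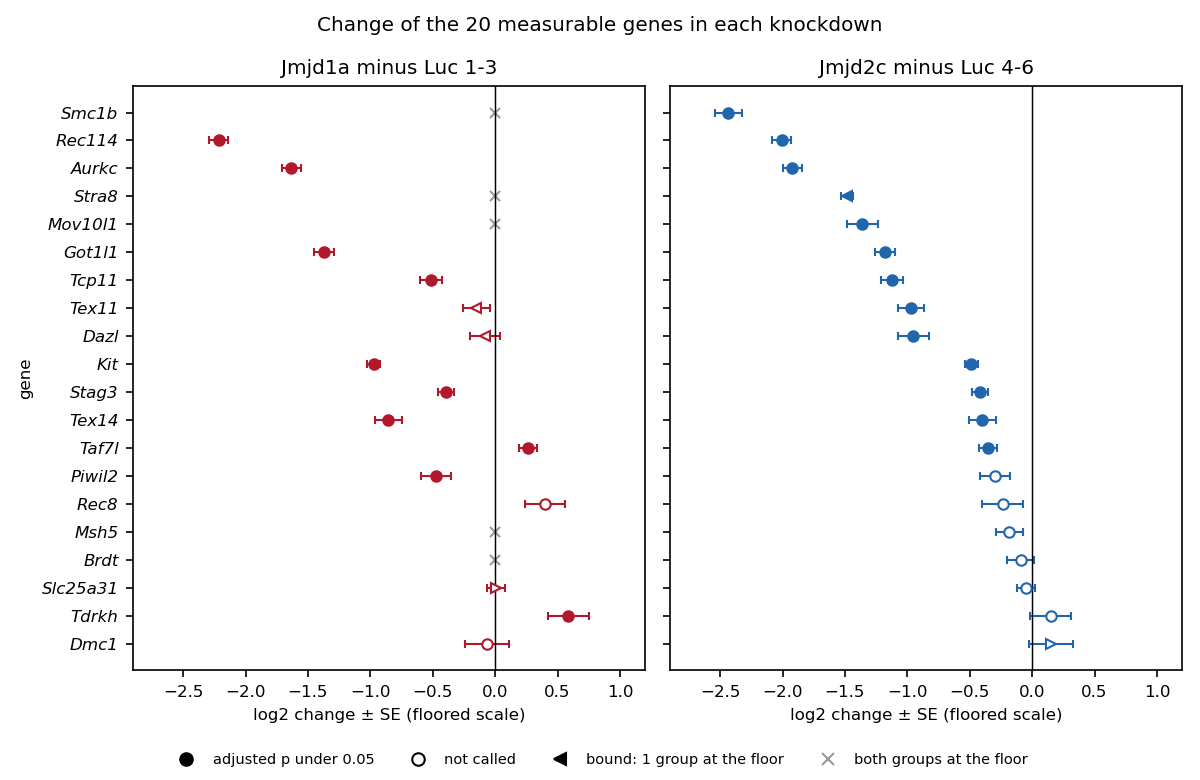
Log2 change ± SE (horizontal axis, values floored at 32) of the 20 measurable genes in Jmjd1a against Luc 1-3 (left) and in Jmjd2c against Luc 4-6 (right). Filled points passed at an adjusted p under 0.05, triangles are bounds and crosses mark genes below the floor in both groups. In Jmjd2c 13 genes are filled and all of these lie left of 0, and in Jmjd1a 8 filled genes lie left and 2 right of 0.

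The knockdown effects were compared directly, as the Jmjd1a change minus the Jmjd2c change. Over all tested probes 24.2% differed. Kit fell more in Jmjd1a (difference -0.48 ± 0.07, adjusted p = 0.000624), while Tcp11 fell more in Jmjd2c (0.60 ± 0.12, adjusted p = 0.00467). Taf7l, which changed in opposite directions, differed by 0.62 ± 0.10 (adjusted p = 0.00135). For Rec114, Aurkc and Got1l1 the difference did not pass (-0.21, 0.29 and -0.19, adjusted p = 0.198, 0.0687 and 0.247), which does not show that the effects were equal. The floor limits the Aurkc change in Jmjd1a, so even the sign of its difference is not settled. Each knockdown was set against a different Luc set, so a difference between targets and one between sets cannot be told apart.

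The control sets also differed in these genes. In Luc 4-6 arrays 16 of the 20 measurable genes were higher than in Luc 1-3 arrays, 4 did not pass and 0 were lower (limma, and 0 also at an unadjusted p under 0.05). Among all tested probes 37.1% were called higher and 20.9% lower, 58% in all. On 18 of the 20 genes every Luc 4-6 array lay above every Luc 1-3 array, against 40.7% of probes, and on Dmc1 every one lay below, against 23.9%, at or near the floor. The median difference of the 20 genes was 1.31 on the log2 scale, against 0.10 over all tested probes. These counts and this median include Stra8, Smc1b, Mov10l1, Tex11 and Dazl, whose height over Luc 1-3 is at least partly set by the filter. Of the 10 genes above the floor on all 12 arrays 10 were higher and 0 lower. Quantile normalization moved the median of all probes to -0.02 and the calls to 4408 higher and 4592 lower, against 5889 and 3310 without it, and it left 16 genes higher and 0 lower. This comparison shares arrays with both knockdown comparisons.

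Among genes above the floor in both sets Got1l1 differed most, at 2625, 2705 and 2738 in Luc 4-6 and 363, 379.5 and 340.4 in Luc 1-3 arrays, a difference of 2.90 ± 0.08 (SE, adjusted p = 2.69e-10) or 7.46-fold. It was the 5th highest difference among 12191 probes above the floor on all 6 Luc arrays. Tcp11 was the 13th, with a difference of 2.41 ± 0.09 (SE, adjusted p = 2.23e-09). Tex11 was 4.18-fold higher (2.06 ± 0.11 SE, adjusted p = 2.39e-08), with 2 of 3 Luc 1-3 arrays below the floor. Dazl was 4.41-fold higher (2.14 ± 0.12 SE, adjusted p = 5.24e-08), likewise with 2 of 3 Luc 1-3 arrays below the floor, and Aurkc 4.09-fold (2.03 ± 0.08 SE, adjusted p = 2.39e-09). Smc1b was at least 6.99-fold, Mov10l1 at least 2.85-fold and Stra8 at least 2.79-fold higher, since all Luc 1-3 arrays lay below the floor. Rec114, Stag3, Tex14, Taf7l and Rec8 differed by 1.09 (Rec8) to 1.55 (Rec114), and Piwil2, Kit and Tdrkh by less than 1. ES cell markers went both ways between the Luc sets, with 2 of 8 higher in Luc 4-6 and 4 lower on their brightest probes (limma). The brighter Pou5f1 probe averaged 1981 ± 140.3 in Luc 4-6 and 2806 ± 161 in Luc 1-3 arrays (SD, n = 3 each, log2 difference -0.50, adjusted p = 3.82e-05). Nanog was higher in Luc 4-6, by 0.28 on its brightest probe (adjusted p = 0.00214) and by 1.07 and 0.93 on its dimmer probes (adjusted p = 1.44e-07 and 2.66e-07). For Sox2 the dimmer probe was higher (0.37, adjusted p = 0.000185) and the brighter did not pass (0.03, adjusted p = 0.710).

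For 9 of the 20 genes the group means stood in the order Luc 4-6, Jmjd2c, Luc 1-3, Jmjd1a, as for 14.9% of all tested probes: Stag3, Tex11, Dazl, Piwil2, Kit, Aurkc, Tex14, Tcp11 and Got1l1. Not every step of the order was called. Luc 1-3 over Jmjd1a did not pass in limma for Tex11 (adjusted p = 0.356) or Dazl (adjusted p = 0.704). Both had 1 of these 6 arrays above the floor. Luc 4-6 over Jmjd2c did not pass for Piwil2 (adjusted p = 0.0659). For Aurkc the Jmjd2c and Luc 1-3 levels were close (means 109 and 101). Rec114 differed from this order only in that its Jmjd2c mean (162) lay below its Luc 1-3 mean (222). Jmjd2c and Luc 1-3 were not set against each other, and the step between them was not tested.

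**Figure D3:**
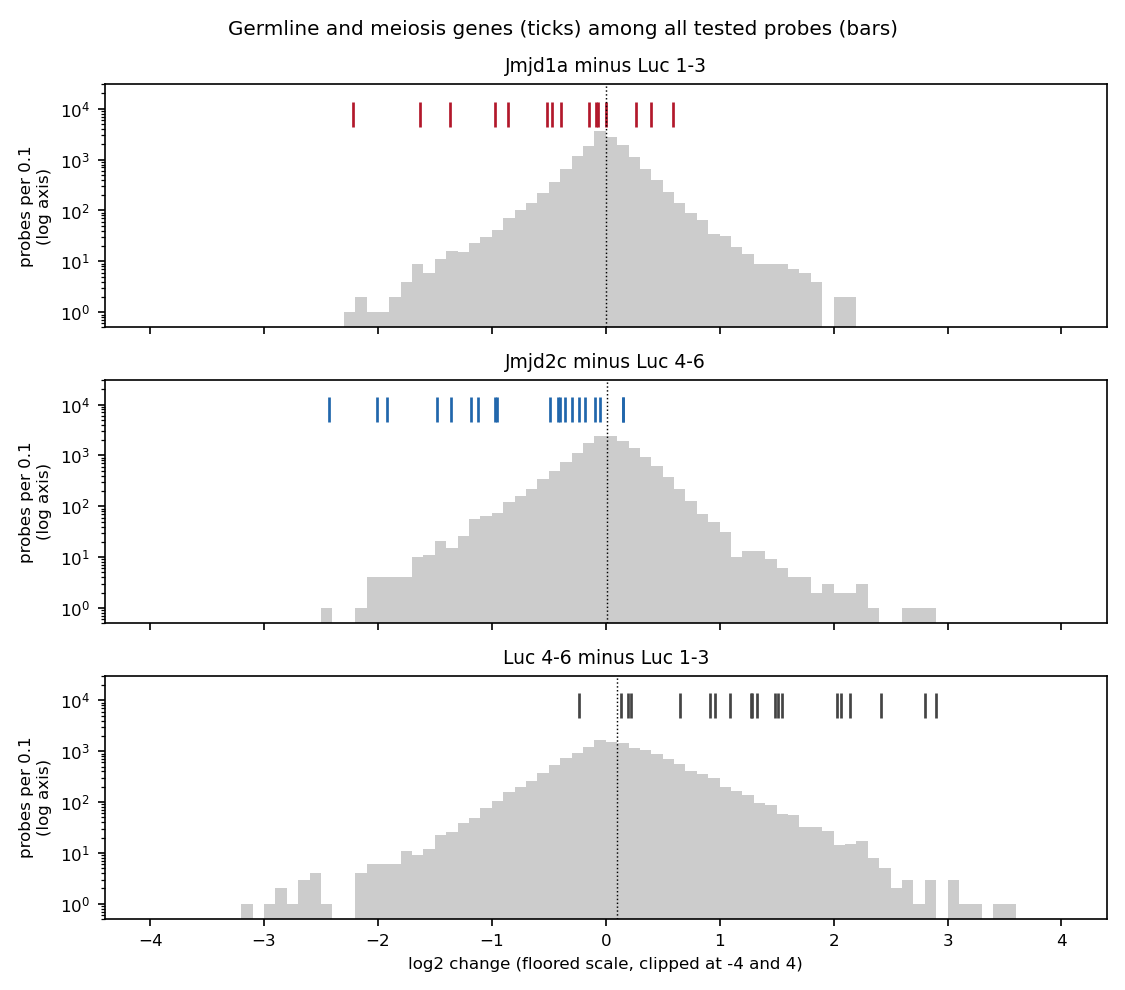
Log2 change (horizontal axis, values floored at 32) of all 15853 tested probes as grey bars (log axis) and of the measurable germline and meiosis genes as ticks. Genes below the floor in both groups are left out, and the dotted line is the median of all probes. The ticks reach -2.21 in Jmjd1a and -2.43 in Jmjd2c, and in Luc 4-6 against Luc 1-3 they reach 2.90.

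The 14 silent genes were the break factors Spo11 and Mei1, the crossover factor Msh4, the chromosome axis genes Hormad1, Sycp2 and Sycp3, the germ cell RNA helicase Ddx4, Nanos3 and Prdm1 of germ cell specification, the piRNA genes Mael, Asz1, Tdrd1 and Tex15, and the surface protein gene Tex101. Their 18 probes ran from -29.8 to 45.2 over all arrays, and 2 of their 216 values exceeded the floor, for Ddx4 and Prdm1, both on Luc replicate 6. A value below the floor shows only that no transcript was measurable with these probes.

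Other germline genes come from lists written with earlier results of these arrays known. Their counts stand beside 12.1% of all tested probes called lower and 13.4% higher in Jmjd1a, 18.2% lower and 20.7% higher in Jmjd2c, and 20.9% lower and 37.1% higher in Luc 4-6 against Luc 1-3; whether any list differs from these shares was not tested. Of 47 other meiosis genes 34 were on the array and 21 measurable. In Jmjd1a 5 fell and 2 rose (median -0.05). The falls included Tex19.1, which curbs transposons in germ cells (-0.64, adjusted p = 0.000103), and Tex19.2 (-0.63, adjusted p = 0.000296), which are paralogues whose probes may share signal, and the strand-exchange cofactor Mnd1 (-0.59, adjusted p = 0.00935). The rises were Ccnb1ip1, a crossover ubiquitin ligase (0.32, adjusted p = 0.00684), and the meiotic RNA helicase Ythdc2 (0.31, adjusted p = 0.00819). In Jmjd2c 10 fell and 4 rose (median -0.15). The falls included Meiob, which was measurable only through the Luc 4-6 arrays (mean 45.5, against 13.8 in Jmjd2c). It had to differ from the other groups, so its calls in Jmjd2c and between the Luc sets carry no support. Sohlh2, a transcription factor of early spermatogonia and oocytes (-0.87, adjusted p = 3.31e-05), Tex19.2 (-0.82, adjusted p = 2.81e-05) and Sun1, which ties telomeres to the nuclear envelope (-0.68, adjusted p = 2.63e-06), fell most. Among the rises were Boll, a relative of Dazl (0.45, adjusted p = 0.0114), Tex19.1 (0.33, adjusted p = 0.00567) and Tex16, at least 1.44-fold. Tex19.1 thus changed in opposite directions in the knockdowns. In Luc 4-6 against Luc 1-3, 10 of the 21 were higher and 2 lower, with the cytoplasmic polyadenylation factor Cpeb1 (1.81, adjusted p = 1.41e-07) the largest of the measured differences.

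Of 18 other genes listed for the piRNA pathway, which include wider relatives such as Mov10 and Tdrd3, 7 were measurable. In each knockdown 3 fell and 1 rose, beside the shares of all probes given above. The same 3 fell in both: Gpat2, a mitochondrial acyltransferase-like protein of the piRNA pathway (-0.50, adjusted p = 0.00672 in Jmjd1a; -1.48, adjusted p = 2.03e-06 in Jmjd2c), the Tudor protein gene Tdrd12 (-0.92, adjusted p = 3.58e-06 in Jmjd1a; -0.53, adjusted p = 0.000155 in Jmjd2c) and Mov10, the widely expressed relative of Mov10l1 (-1.03, adjusted p = 9.15e-07 in Jmjd1a; -0.60, adjusted p = 3.58e-05 in Jmjd2c). Tdrd3 rose in both (0.59, adjusted p = 9.73e-05 in Jmjd1a; 0.68, adjusted p = 2.24e-05 in Jmjd2c). Gpat2 averaged 114 in Jmjd1a and 161 in Luc 1-3 arrays, and 217 in Jmjd2c and 602 in Luc 4-6 arrays. It was higher in Luc 4-6 than in Luc 1-3 arrays (1.91, adjusted p = 6.86e-08), where this list had 2 higher and 4 lower genes.

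Of 15 genes of germ cell precursors 11 were measurable. In Jmjd1a, where 12.1% of all tested probes fell, 4 fell and 1 rose: the alkaline phosphatase gene Alpl (-0.70, adjusted p = 1.13e-05), Pecam1 (-0.57, adjusted p = 0.00171), Dnd1, which guards germ cell mRNAs (-0.30, adjusted p = 0.00441), and Ifitm1 fell, and Ifitm3 rose (0.22, adjusted p = 0.0325). In Jmjd2c Pecam1 (-0.80, adjusted p = 0.000104), Sox15 (-0.50, adjusted p = 0.00697) and Alpl (-0.50, adjusted p = 9.5e-05) fell and Ifitm3 rose (0.19, adjusted p = 0.0414). Several of these genes are also expressed by ES cells in general. In Luc 4-6 arrays 6 of the 11 were higher and 3 lower than in Luc 1-3 arrays, with Pecam1 (1.76, adjusted p = 6.41e-08) and the germ cell specification factor Tfap2c (0.91, adjusted p = 2.02e-06) higher and Ifitm3 (-0.79, adjusted p = 1.46e-06) lower.

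**Figure D4:**
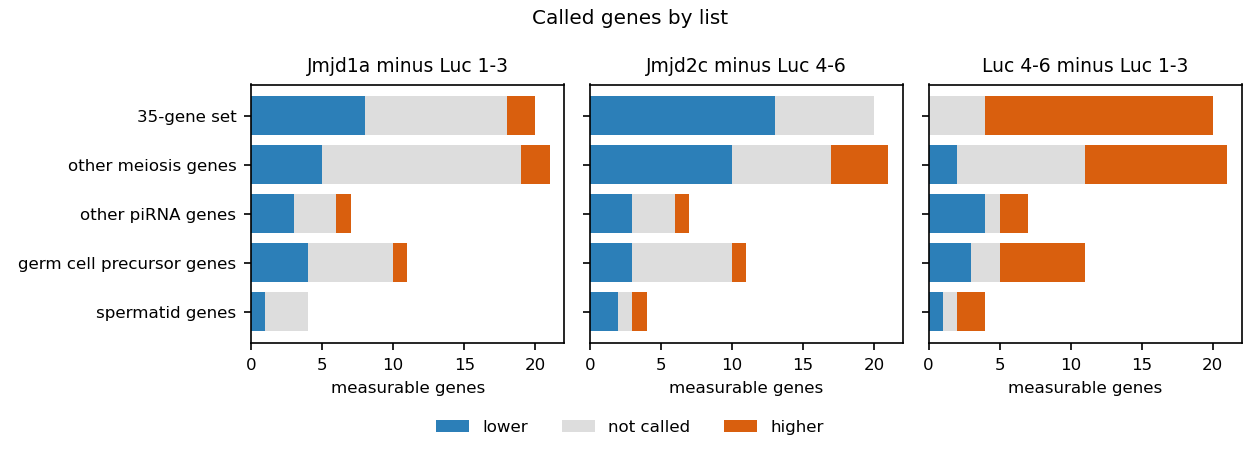
Number of measurable genes called lower, not called and called higher (horizontal axis) in the 35-gene set and in the other germline lists, for each comparison. In Jmjd2c 13 of 20 genes of the set and 10 of 21 other meiosis genes are lower, and in Luc 4-6 against Luc 1-3 16 of 20 and 10 of 21 are higher. These counts include Stra8 and Meiob, which were measurable only through Luc 4-6 arrays, so the filter set their direction.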

How the data were processed

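Biotin-labelled RNA of 12 cultures was hybridised to one-colour Illumina bead arrays, per the labels. The authors deposited a linear intensity for each of 46133 probes. As 35.0% to 36.8% of an array's values were negative, a background had been subtracted; the sources used here give neither that method nor any scaling. No normalization was added. Values under 32 were set to 32 (log2 value 5), and 15853 probes that exceeded 32 on 3 or more of 12 arrays were tested with limma 3.58.1 in R 4.3.3 (lmFit, eBayes; 1 fit, 4 groups, 8 residual degrees of freedom), with two-sided p-values adjusted by Benjamini-Hochberg over these probes. SD are of intensities without the floor. Folds against a group wholly below the floor are bounds. The probe with the highest mean stands for a gene. Symbols come from the platform annotation (29542 probes with 1 symbol, 11 with several, 16580 with none).

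The members, lists and sets of arrays were chosen with earlier results of these data known. Named are all 35 genes, with values per array for those called, and up to 3 called genes per direction from each other list. Promoters come from RefSeq (GRCm38.p6). The test was tried on simulated data. Same-numbered Jmjd1a and Luc arrays did not deviate together (r = -0.00, 0.01 and 0.11), so numbers were not taken as pairs. Alternatives were all 6 Luc arrays, quantile normalization, floors of 16 and 64, other filters, 6 arrays alone, a replicate block and leaving out each array.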

Additional observations from a re-analysis of the deposited data

Results flagged for a closer look

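For 9 of the 20 genes, beside 24.2% of all tested probes, the Jmjd1a change minus the Jmjd2c change passed limma's test of the difference. Both changes were measured above the floor for Kit (-0.48), Tex14 (-0.46), Taf7l (0.62) and Tcp11 (0.60). For Tex14 the difference was at the edge of the threshold (adjusted p = 0.0495). For Tex11 (0.82) and Dazl (0.87) 1 of the 6 arrays of the Jmjd1a comparison lay above the floor, and for Smc1b (2.43), Stra8 (1.48) and Mov10l1 (1.36) none did, so these 5 differences set a Jmjd2c change beside a Jmjd1a change that could not be measured.

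In the 6 Luc arrays 1 array stood apart from the rest, by Dixon's ratio of the gap to the range, for Dmc1 (0.808, replicate 2), Msh5 (0.881, replicate 6), Brdt (0.718, replicate 5) and Slc25a31 (0.666, replicate 6). All 4 genes lay around the floor, which removes most of the range, and chance alone flags about 1 group in 20.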

How the results depend on the processing

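The choice of control arrays changed several calls. Against all 6 Luc arrays 0 members were higher in Jmjd1a and 0 lower in Jmjd2c, and the probes called in Jmjd2c numbered 1896. In that setting the change in Jmjd2c turned to higher for Stag3 (0.22), Rec8 (0.31), Tex11 (0.059), Dazl (0.12), Piwil2 (0.18), Tex14 (0.26), Taf7l (0.28), Tcp11 (0.086) and Got1l1 (0.27), and in Jmjd1a to lower for Rec8 (-0.14) and Taf7l (-0.37), none of them called. These values mix each knockdown with the contrast of Luc 4-6 and Luc 1-3. The number of members lower in Jmjd1a stayed between 6 and 9 under every alternative. Members higher in Jmjd1a numbered 1 with a floor of 64, 1 with the 6 arrays of the comparison alone and 0 to 3 when single arrays were left out. Members lower in Jmjd2c numbered 11 to 14, and members higher in Luc 4-6 15 to 17, when single arrays were left out. Members called with the Jmjd1a change below the Jmjd2c change numbered 1 with quantile normalization or floors of 16 or 64. They also numbered 1 with no filter or the replicate block, and 1 to 2 when single arrays were left out. The Dazl change in Jmjd1a was 0.0045 on the other probe, and the Tdrkh change in Jmjd2c ran between -0.11 without Luc replicate 6 and 0.29 without Luc replicate 5. Same-numbered Jmjd1a and Luc arrays share only a number; with a replicate block 3887 probes were called in Jmjd1a against 4040 without, and the same 8 and 2 counts of members. For Jmjd2c no paired fit could be made, as Luc replicates 4 to 6 share no number with it. The setting without a filter leaves out 28391 probes below the floor on every array, which have no spread. Genes with every array of a comparison at a floor of 64 have no value there. Signal over background limits Smc1b, Stra8, Mov10l1, Tex11 and Dazl in the Jmjd1a comparison.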

Other observations

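Components and partners of the PRC1.6 complex, known as a repressor of germline genes in ES cells, were measured as a further list. Of 15 genes 13 were measurable, and 2 rose and 1 fell in Jmjd1a, beside 13.4% of all tested probes called higher and 12.1% lower. In Jmjd2c 3 rose and none fell, beside 20.7% higher and 18.2% lower, so the rises are near the share of all probes in both knockdowns. On the brightest of its 4 tested probes E2f6, the E2F protein of the complex, was higher in Jmjd1a (limma, 0.39, adjusted p = 0.00406) and in Jmjd2c (0.30, adjusted p = 0.0111). Its other probes are not described here. Its partner Tfdp1 (0.57, adjusted p = 7.27e-05) and the ubiquitin ligase Rnf2 (0.32, adjusted p = 0.0157) rose in Jmjd2c, and Rybp (0.25, adjusted p = 0.0140) rose and Wdr5 (-0.29, adjusted p = 0.00554) fell in Jmjd1a. In Luc 4-6 arrays 7 of the 13 were lower and 1 higher than in Luc 1-3 arrays, beside 20.9% of all tested probes called lower and 37.1% higher. Quantile normalization moved those calls to 4408 probes higher and 4592 lower. L3mbtl2 averaged 882 in Luc 4-6 and 1304 in Luc 1-3 arrays (-0.56, adjusted p = 2.45e-05), and Tfdp1 (-0.65, adjusted p = 7.87e-06) and Hdac1 (-0.48, adjusted p = 0.000467) were lower as well, while E2f6 was higher (0.48, adjusted p = 0.000292).

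Genes of spermatids and sperm were almost wholly silent: all 26 listed were on the array and 4 were measurable. The zona-binding protein gene Zpbp fell in Jmjd1a (-0.67, adjusted p = 0.00223). In Jmjd2c Catsper2 (-0.43, adjusted p = 0.0157) and Odf2 (-0.32, adjusted p = 0.00560) fell, and Crem, an activator of spermatid genes, was at least 1.9-fold higher (adjusted p = 6.55e-05). Crem was at least 2.77-fold lower in Luc 4-6 than in Luc 1-3 arrays. Tnp1 and Prm1, known targets of Jmjd1a in mouse testis, lay below the floor in every group.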
